A study of Homo sapiens with 6 samples.

Results

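The genes described are 9 cell surface proteins used to sort or define stem-like, progenitor or mesenchymal stromal cells: CD44, PROM1 (CD133), THY1 (CD90), NT5E (CD73), ENG (CD105), CD47, ALCAM (CD166), MCAM (CD146) and EPCAM. They form a list of named genes, written with earlier results of these data known, and were matched by gene symbol to 9 of the 57820 rows of the count table, of which 7 passed the filter on low counts. PROM1 and THY1 did not pass it. The data are RNA-seq gene counts from 6 libraries made from J82 cells, a human bladder cancer line long established in culture and grown here in DMEM with serum. In 3 libraries the genotype label is control, which per the study's methods means cells that carry a vector, and in 3 it is FOXC1 KO, meaning cells given a lentiCRISPRv2 vector (Cas9 and a guide RNA on a lentivirus) against FOXC1 and selected with puromycin. FOXC1 is a forkhead transcription factor, and the comparison asks which transcripts differ when it is disrupted. Every value below comes from this cell line, and the labels do not say whether the 3 libraries of a group came from separate cultures or from separate knockout clones.

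Library totals ranged from 22900531 to 25013311 counts in the control group and from 18408134 to 25350908 in the KO group. Abundance is given as CPM, the read count scaled to library size. The KO label was not matched by a lower level of FOXC1 RNA, whose values were 18.4, 16.9 and 19.3 CPM in control replicates 1 to 3 and 24.1, 22.2 and 21.1 CPM in KO, a log2 fold change of 0.30 (edgeR adjusted p = 0.0127). A transcript level does not show whether the coding sequence was disrupted. The study's methods state that knockout clones were checked for FOXC1 protein by Western blot, which the count files do not hold, and "KO" below is used as the label gives it.

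These proteins sit in the outer membrane and differ widely in what they do. Several bind the surrounding matrix or other cells (CD44, ALCAM, MCAM, EPCAM), some act as co-receptors or signals (ENG, CD47), and NT5E is an enzyme that makes adenosine outside the cell. CD44 and PROM1 have been used to isolate tumour-initiating cells, NT5E, ENG and THY1 define cultured mesenchymal stromal cells, and EPCAM marks epithelial cells.

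Genes were called on 2 conditions, an adjusted p below 0.05 in edgeR's quasi-likelihood test (Benjamini-Hochberg, over all 15647 genes tested) and more than a 1.3-fold change. By this rule MCAM and ALCAM rose in KO, by 1.70-fold and 1.33-fold, and EPCAM fell to 0.552 of its control level. CD44 was higher by 1.28-fold, with an adjusted p of 0.000512, and so stayed just under the fold threshold. NT5E, ENG and CD47 were not called, and PROM1 and THY1 were at or near 0. In bulk RNA, a marker carried by fewer cells and less of its RNA in each cell cannot be told apart. Of the 7 members tested, 3 were therefore called, where 16.0% of all tested genes were called, with 1 lower (8.39% of tested genes were called lower) and 2 higher (7.57%). Without the fold threshold, 4 of the 7 had an adjusted p under 0.05, against 29.4% of tested genes. The same 4 had groups that did not overlap, as 41.3% of tested genes did. The median log2 fold change of the 7 was 0.06, and that of all tested genes was 0.00.

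**Figure D1:**
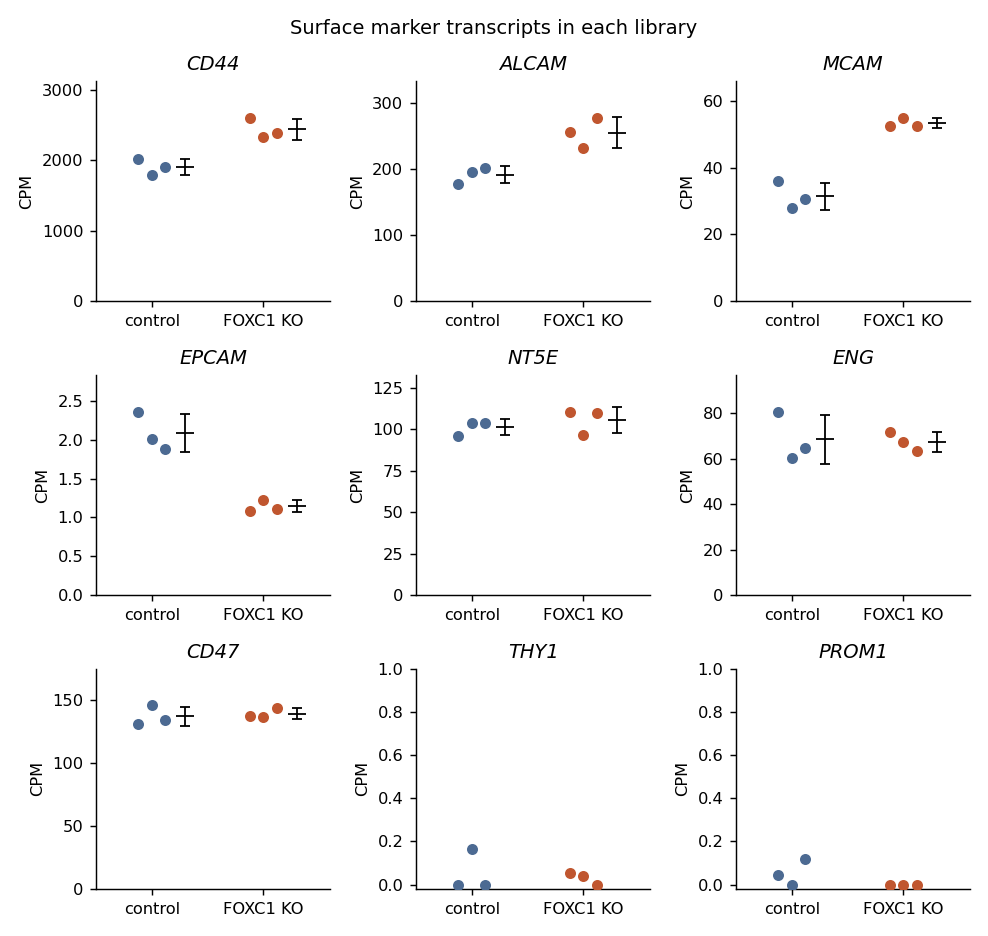
CPM of each member (vertical axis, a separate scale for each gene, starting at or just below 0) in the 3 control and 3 FOXC1 KO libraries. Each point is a library, and bars give the mean and SD of a group, left out for THY1 and PROM1, which had at most 4 counts. CD44, ALCAM and MCAM lie higher in every KO library than in any control library, EPCAM lies lower, and the groups of NT5E, ENG and CD47 overlap.

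An annotated RefSeq start is shown first for MCAM, ALCAM and CD44, whose KO libraries all lay above the controls, although CD44 was not called. FOXC1 is a DNA-binding factor, and these are stretches where its known motif could be looked for. RefSeq windows (GRCh38.p14, 250 bases before to 50 after an annotated start) matched 7 of the 9 members, all but EPCAM and THY1. Such a start can differ from the end of the GRCh37 gene span given below. On GRCh37 the MCAM window (119187791 to 119188090) and the CD44 window (35160468 to 35160767) lie inside those spans. The letters searched, on both strands, were the forkhead motif GTAAACA and its variant GTAAATA, the GC box GGGCGG and the CCAAT box, and matches are in capitals. Matches may overlap each other, as GC boxes do in the MCAM window. The windows are chr11:35138921-35139220 for CD44 (plus strand), chr3:105366659-105366958 for ALCAM (plus strand) and chr11:119317081-119317380 for MCAM (minus strand), each written 5′ to 3′ along its gene.
CD44: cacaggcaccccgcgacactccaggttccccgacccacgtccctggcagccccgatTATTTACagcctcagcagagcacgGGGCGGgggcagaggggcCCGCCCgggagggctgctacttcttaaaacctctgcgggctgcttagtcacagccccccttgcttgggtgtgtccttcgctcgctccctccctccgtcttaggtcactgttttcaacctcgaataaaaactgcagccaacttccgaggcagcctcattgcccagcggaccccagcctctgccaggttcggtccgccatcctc
ALCAM: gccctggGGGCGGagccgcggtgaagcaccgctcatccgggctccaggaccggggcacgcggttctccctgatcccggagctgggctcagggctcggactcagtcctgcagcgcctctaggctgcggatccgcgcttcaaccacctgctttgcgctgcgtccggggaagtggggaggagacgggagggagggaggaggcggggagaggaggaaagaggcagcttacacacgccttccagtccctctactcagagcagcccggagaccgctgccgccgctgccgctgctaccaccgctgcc
MCAM: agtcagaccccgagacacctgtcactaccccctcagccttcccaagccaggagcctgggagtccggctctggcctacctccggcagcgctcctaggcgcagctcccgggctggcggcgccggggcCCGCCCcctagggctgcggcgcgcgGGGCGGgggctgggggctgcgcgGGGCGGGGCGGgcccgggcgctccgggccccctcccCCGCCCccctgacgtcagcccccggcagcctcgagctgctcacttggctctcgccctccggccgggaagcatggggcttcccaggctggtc
GTAAACA was in none of the 10 windows of the 7 members, and it was in 3.41% of 27305 windows of all genes. GTAAATA, found in 2.77% of all windows, was in the CD44 window as its reverse complement (TATTTAC), at position -194 counted from the start. GC boxes, found in 44.6% of all windows, numbered 2 in CD44, 1 in ALCAM and 5 in MCAM. No CCAAT box was in these 3 windows. GC content was 63.3% in CD44, 70.0% in ALCAM and 78.0% in MCAM, where the median of all windows was 58.3%. These are not particular to CD44, ALCAM and MCAM. The CD47 window had 6 GC boxes and 79.0% GC and the NT5E window 2 GC boxes and 75.0% GC, and in both genes the groups overlapped. These matches describe letters only. The study mapped FOXC1 binding in J82 cells by ChIP-seq, but those peaks were not examined here, so binding at these windows was not tested.

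MCAM is an adhesion molecule of the immunoglobulin superfamily, found on endothelial, smooth muscle and perivascular cells and on melanoma. The gene (ENSG00000076706.10) lies at chromosome 11, 119179239 to 119192231 on the minus strand of GRCh37. Its values were 35.9, 27.8 and 30.5 CPM in control replicates 1 to 3 and 52.5, 55.0 and 52.5 CPM in KO. The lowest KO library was thus above the highest control library, and the KO libraries lay within 1.05-fold of each other while the controls spanned 1.29-fold. The means were 31.4 ± 4.13 and 53.3 ± 1.41 CPM (SD, n = 3 each), with a log2 fold change of 0.76 (SE 0.0866, 95% interval 0.59 to 0.94, edgeR adjusted p = 5.73e-08). In fold terms the interval ran from 1.503 to 1.921. CBL overlaps MCAM on the opposite strand in the annotation used, and it had a log2 fold change of 0.12 (edgeR adjusted p = 0.237).

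ALCAM binds itself and the lymphocyte protein CD6, and joins neighbouring cells of many tissues. It is encoded at chromosome 3, 105085753 to 105295744 on the plus strand (ENSG00000170017.8). In control it measured 177, 196 and 203 CPM, and in KO 257, 232 and 278 CPM. All KO libraries were above all controls, with spreads of 1.14-fold among controls and 1.2-fold among KO libraries. The log2 fold change was 0.41 (SE 0.0749, 95% interval 0.26 to 0.57, edgeR adjusted p = 8.85e-05), from 192 ± 13.03 to 256 ± 23.02 CPM (SD, n = 3 each). The call sat close to the fold threshold, log2 0.38: without control replicate 1 the log2 fold change was 0.35 and without KO replicate 3 it was 0.34, both under it.

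CD44 is the main receptor for hyaluronan, the long sugar chain of the matrix, and it also binds osteopontin. Its gene spans chromosome 11, 35160429 to 35253949 on the plus strand (ENSG00000026508.12), and is spliced into a standard form and variant forms that gene counts cannot tell apart. The controls gave 2009, 1793 and 1909 CPM and the KO libraries 2600, 2324 and 2384 CPM. Again no KO library reached down to a control, and both groups spanned 1.12-fold. The means went from 1904 ± 108 to 2436 ± 145 CPM (SD, n = 3 each), a log2 fold change of 0.36 (SE 0.0746, 95% interval 0.20 to 0.51). The lower bound of that interval is above 0 and the upper bound is past the fold threshold. Without control replicate 1 the log2 fold change was 0.39, and without KO replicate 2 it was 0.39, and in both cases CD44 passed the threshold. A noncoding gene inside CD44 on the same strand, ENSG00000251194, was called higher (log2 fold change 0.96, edgeR adjusted p = 0.00753) but held only 12 to 31 counts in a library, against at least 43789 for CD44.

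EPCAM is an adhesion molecule of epithelial cells, carried by most carcinomas. It lies at chromosome 2, 47572297 to 47614740 on the plus strand (ENSG00000119888.6). It was sparse here, with 53, 49 and 48 counts in the control libraries and 20, 31 and 26 counts in the KO libraries. These correspond to 2.36, 2.01 and 1.89 CPM in control and 1.087, 1.229 and 1.105 CPM in KO, so the groups did not overlap. Mean values of the 3 libraries were 2.085 ± 0.247 CPM (SD) in control and 1.14 ± 0.0775 CPM (SD) in KO. EPCAM fell by 0.86 on the log2 scale (SE 0.210, edgeR adjusted p = 0.0024), with a 95% interval of -1.29 to -0.43, the widest of the 7.

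Some, but not all, of the other listed epithelial markers were also lower in KO. Of all tested genes 8.39% were called lower. Of 5 listed keratin and cadherin genes 4 were tested and 3 fell, namely KRT19 (log2 fold change -0.70), KRT8 (-0.60) and KRT18 (-0.51), while KRT7 had a log2 fold change of -0.07 and CDH1, the epithelial cadherin, had 0 to 3 counts in every library. Summed over the list, the level was 3020 to 3840 CPM in control and 2370 to 2650 CPM in KO. Of the 7 urothelial differentiation markers 2 were tested, and both fell: GATA3 by 0.42 and PPARG by 0.45 on the log2 scale. Summed over all 7, the level was 158 to 161 CPM in control and 116 to 119 CPM in KO. The GATA3 log2 fold change was -0.37 without KO replicate 1, which is under the fold threshold. The part of the epithelial genes in the EPCAM difference was not tested.

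NT5E converts AMP to adenosine at the cell surface, ENG is a co-receptor for TGF-beta and BMP ligands, and CD47 binds SIRPA on phagocytes as a "don't eat me" signal. NT5E gave 95.8, 104 and 104 CPM in control and 111, 96.5 and 110 CPM in KO. The values for ENG were 80.7, 60.3 and 64.7 CPM in control and 71.7, 67.1 and 63.1 CPM in KO. In CD47 they were 131, 145 and 134 CPM, then 137, 136 and 144 CPM. In all 3 genes the groups overlapped, and in ENG the widest spread was that among the controls, at 1.34-fold. Log2 fold changes were 0.06 for NT5E (SE 0.0739, edgeR adjusted p = 0.591), -0.03 for ENG (SE 0.0882, adjusted p = 0.861) and 0.02 for CD47 (SE 0.0698, adjusted p = 0.851). The 95% intervals of the KO to control ratio ran from 0.938 to 1.16 for NT5E, from 0.867 to 1.11 for ENG and from 0.919 to 1.12 for CD47, all of them short of a 1.3-fold difference in either direction. The genes lie at chromosome 6, 86159302 to 86205509 (NT5E, plus strand), chromosome 9, 130577292 to 130616937 (ENG, minus strand) and chromosome 3, 107761938 to 107810709 (CD47, minus strand).

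PROM1, a pentaspan protein of membrane protrusions, had 1, 0 and 3 counts in control and 0 in each KO library. THY1, a small GPI-anchored protein of fibroblasts, neurons and T cells, had 0, 4 and 0 counts in control and 1, 1 and 0 in KO. A count of 0 allows up to 3 counts, equal to 0.118 to 0.163 CPM in these libraries and to 0.0445 CPM over the 3 KO libraries together. Neither gene could be compared at this depth, and no fold change is given. THY1 (chromosome 11, 119286186 to 119295695, minus strand) lies 94.0 kb from MCAM, and PROM1 lies at chromosome 4, 15964699 to 16086001 on the minus strand.

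**Figure D2:**
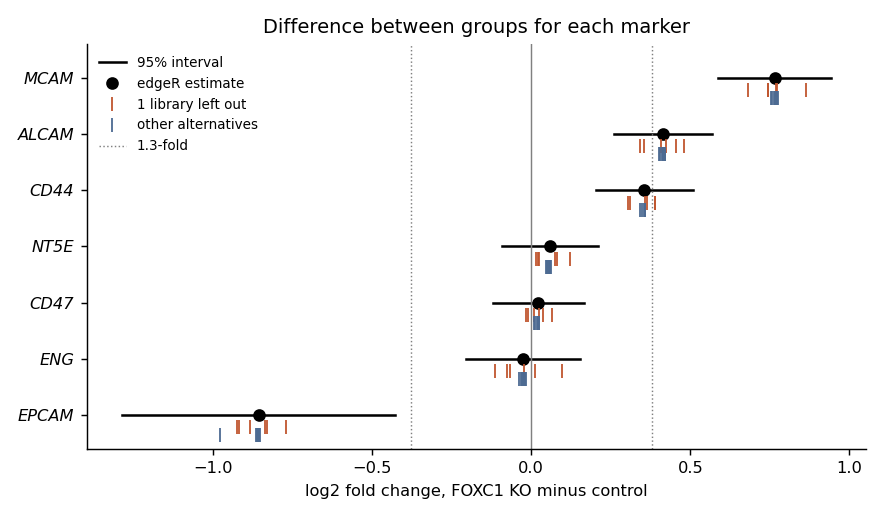
Log2 fold change of the 7 tested members (horizontal axis, FOXC1 KO minus control) as black points, with 95% intervals as black bars. Orange ticks give the value with 1 library left out, blue ticks the other alternatives, and dotted lines mark a 1.3-fold change. The intervals of MCAM, ALCAM and CD44 lie above 0, that of EPCAM lies below it, and those of CD47, NT5E and ENG include it.

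To compare levels between genes, counts were divided by exon length and scaled to the library (TPM). CD44 was the most abundant at 737 ± 33.7 TPM in control and 957 ± 76.3 TPM in KO (SD, n = 3 each). ALCAM came next at 104 ± 9.38 and 140 ± 15.0 TPM, then NT5E at 86.4 ± 5.87 and 91.4 ± 8.80 TPM. ENG at 68.9 ± 9.32 and 68.8 ± 5.11 TPM and CD47 at 64.3 ± 4.36 and 66.2 ± 2.92 TPM were neighbours whose ranges overlapped in both groups, so their order is not resolved. NT5E and ENG were barely apart in control, where the lowest NT5E value was 79.7 TPM and the highest ENG value 79.2 TPM. With the longest annotated transcript as the length, their control ranges overlapped (65.8 to 74.9 and 54.9 to 70.9 TPM). Their order in control thus depends on the length used. MCAM followed at 16.3 ± 1.84 and 28.2 ± 0.194 TPM, and EPCAM at 3.31 ± 0.313 and 1.84 ± 0.0816 TPM. THY1 and PROM1 were last, and their ranges overlapped as well. The ratio of MCAM to EPCAM, taken from the TPM means, was 4.94 in control and 15.3 in KO, while that of CD44 to ALCAM was 7.12 and 6.84.

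**Figure D3:**
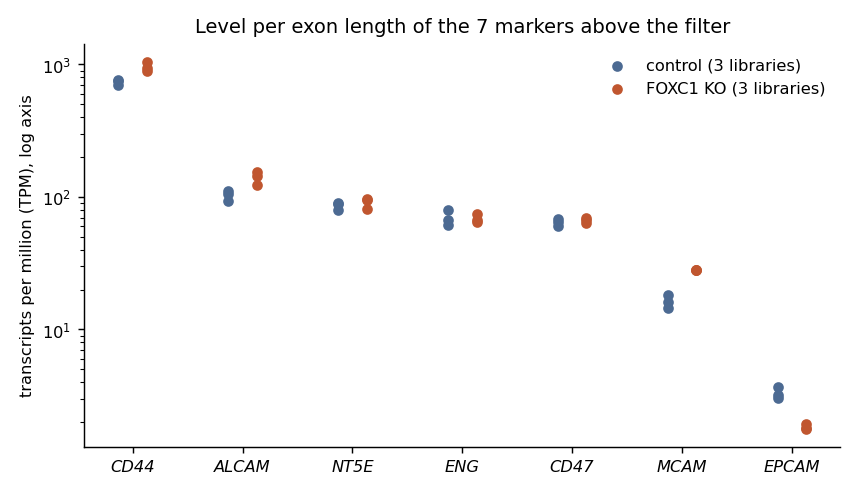
Level per exon length of the 7 tested members in TPM (logarithmic axis) in the control and FOXC1 KO libraries, each point a library. CD44 stands above the other 6 in every library, at 737 TPM on average in control and 957 TPM in KO, and ENG and CD47 overlap.

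The genes that bind, make, cut or act with these proteins were taken as 4 lists of 47 genes, of which 45 were matched and 35 were tested. Among the 35, 10 rose and 2 fell, with a median log2 fold change of 0.10. Of all tested genes 7.57% were called higher and 8.39% lower, with a median of -0.001. The same shares apply beside the counts of each partner list below. In the CD44 and hyaluronan list 2 of 8 tested genes rose. SPP1, osteopontin, went from 1.29 ± 0.397 to 2.39 ± 0.483 CPM (SD, n = 3 each, log2 fold change 0.89, edgeR adjusted p = 0.00279). MSN, moesin, which ties CD44 to the actin cortex, went from 567 to 753 CPM (log2 fold change 0.41). Its relatives EZR and RDX had log2 fold changes of 0.05 and -0.07, and the hyaluronan synthases HAS2 and HAS3 of 0.04 and -0.28, none of them called. ESRP1, a splicing factor that favours CD44 variant forms, had 1 to 9 counts. The MSN call was lost, on the fold threshold, without control replicate 2 (0.35), without control replicate 3 (0.37) and without KO replicate 2 (0.375, where the threshold is 0.3785).

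In the list for the ENG receptor complex, which also holds a protease that acts on ENG, 2 of 5 tested genes rose. Among its tested receptors TGFBR1 alone was called. MMP14, the membrane protease that sheds ENG, went from 55.4 ± 5.62 to 114 ± 8.10 CPM (SD, n = 3 each), a log2 fold change of 1.05 (edgeR adjusted p = 2.47e-11). TGFBR1, the type I receptor kinase for TGF-beta, rose by 0.47 on the log2 scale, and by 0.36 without control replicate 1, where it passed the adjusted p but not the fold threshold. TGFBR2 and BMPR2, the type II receptors, had log2 fold changes of 0.26 and 0.04 and were not called, and ACVRL1 had at most 2 counts. Around NT5E, 1 of 6 tested genes of adenosine handling was called: SLC29A2, a nucleoside transporter, fell from 12.9 to 9.60 CPM (log2 fold change -0.41, edgeR adjusted p = 0.00743). That call was lost without control replicate 1 (-0.30), without KO replicate 1 (-0.378) and without KO replicate 3 (-0.37). ADORA2B, an adenosine receptor, had a log2 fold change of 0.34 with an adjusted p of 0.00128, under the fold threshold.

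Among the 16 tested ligands and partners of the other members 6 rose and 1 fell. WNT5A, a secreted ligand reported to bind MCAM, went from 89.2 to 186 CPM (log2 fold change 1.06, edgeR adjusted p = 1.13e-12). ITGB3, an integrin subunit that pairs with ITGAV and can bind THY1, rose by 0.89 on the log2 scale and PROM2, the relative of PROM1, by 0.77. THBS1, thrombospondin, a secreted ligand of CD47, went from 474 to 667 CPM (log2 fold change 0.49). CLDN7, a tight junction protein that complexes with EPCAM, fell from 6.17 to 3.38 CPM (log2 fold change -0.86, edgeR adjusted p = 4.29e-05).

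**Figure D4:**
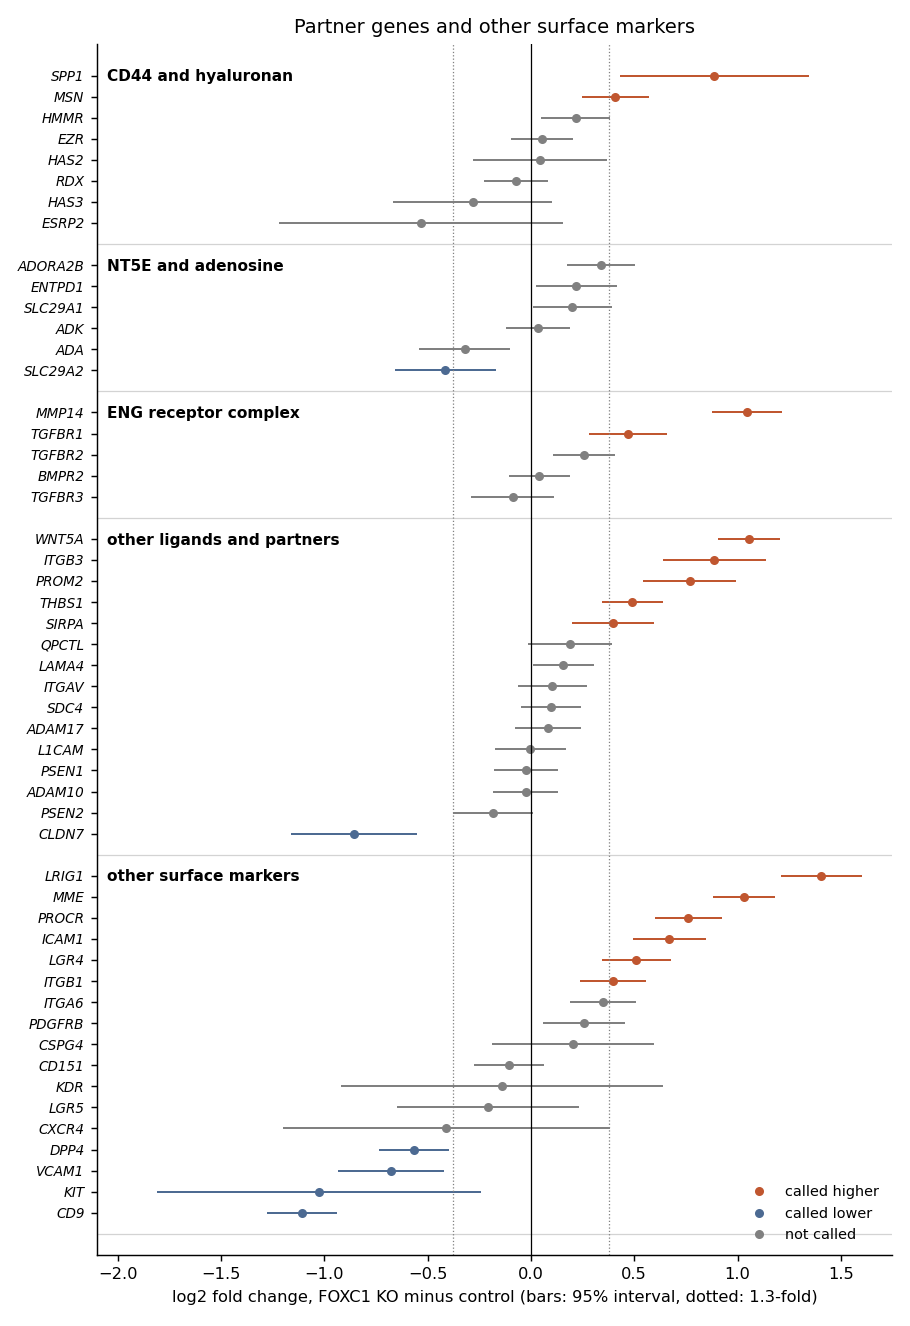
Log2 fold change (horizontal axis, FOXC1 KO minus control) of tested partner genes of the members (1 is left out) and of other stem or progenitor surface markers, grouped by list, with 95% intervals as bars, coloured by call, and dotted lines at 1.3-fold. MMP14, WNT5A, LRIG1 and MME lie above 1 and CD9 and KIT below -1.

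A list of 25 further stem or progenitor surface markers gave 17 tested genes, of which 6 rose and 4 fell (median log2 fold change 0.20). Of all tested genes 7.57% were called higher and 8.39% lower. KIT, among the 4 that fell, had 6 to 21 counts in a library and was not called by DESeq2. LRIG1, a negative regulator of growth factor receptors that marks epithelial stem cells, went from 11.2 to 29.8 CPM (log2 fold change 1.41, edgeR adjusted p = 9.73e-13). MME (CD10), a membrane peptidase, went from 130 to 265 CPM (log2 fold change 1.03), and PROCR and ICAM1 rose by 0.76 and 0.67 on the log2 scale. CD9, a tetraspanin, went the other way, from 58.5 to 27.1 CPM (log2 fold change -1.11, edgeR adjusted p = 8.68e-12). The list thus held large changes in both directions.

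Cultured mesenchymal stromal cells are also defined by markers they lack. Of 7 such markers 4 were tested, and 2 fell and 1 rose, where 8.39% of all tested genes were called lower and 7.57% higher. CD34, a sialomucin of blood progenitors, had a log2 fold change of -0.97 and HLA-DRA, an MHC class II chain, of -1.26, while CD14, a monocyte receptor, had 0.62. CD34 had 12 to 36 counts per library, and DESeq2 did not call it (log2 fold change -0.98, adjusted p = 0.0555). Because MCAM and ENG are also endothelial markers, the endothelial list was read beside them. Its summed level was 0.134 to 0.314 CPM in control and 1.03 to 1.44 CPM in KO. CDH5, the endothelial cadherin, was the only gene of the list tested. It had 0, 0 and 1 counts in control and 18, 18 and 26 in KO, and passed the filter on low counts only through the KO libraries. Most of the KO sum was CDH5 (mean 0.932 CPM), so the sum describes this gene rather than the list. VWF had 3 to 7 counts in a library, and TEK and CLDN5 had at most 3. The part of this list in the MCAM difference was not tested.

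The surroundings of the called members and of CD44 in the genome were then counted. For comparison, 16.0% of all tested genes were called in either direction. Within 1 Mb of MCAM 30 other genes were tested, of which 1 rose and 1 fell: NECTIN1, an adhesion molecule 315 kb away, had a log2 fold change of 0.95 and TMEM25, at 777 kb, one of -0.40. Their median log2 fold change was 0.00. Near ALCAM 1 gene was tested and was not called. Around EPCAM 18 were tested, with the noncoding gene ENSG00000230979, 346 kb away, as the only call (log2 fold change 1.42, edgeR adjusted p = 0.00189). Of the 11 tested genes within 1 Mb of CD44, 1 was called higher, namely ENSG00000251194, the sparse noncoding gene inside CD44 described above.

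The genes most like a member across the 6 libraries were sought for the 3 with the largest log2 fold change. Likeness was the root mean square difference of mean-centred log2 CPM, over the 13616 tested genes that averaged 1 CPM or more. For EPCAM these were HSD17B14 (0.0578), ADAMTS13 (0.0623) and NAPRT (0.0633), for MCAM they were KIAA0930 (0.0417), ACOX3 (0.0511) and RGS3 (0.0538), and for ALCAM they were EOGT (0.0252), BAG2 (0.0308) and MATCAP2 (0.031). All of these differences, in log2 units, are below the size of the member's own log2 fold change. They are the smallest among 13616 genes, on profiles that include the group difference, so this follows largely from the selection.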

How the data were processed

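RNA-seq of polyadenylated RNA was carried out on 6 J82 libraries, and groups were taken from GEO's labels. The authors aligned paired reads to hg19 with STAR and assigned them to GENCODE genes with featureCounts. Tool versions, the strand setting and the treatment of reads mapping to several places are not given in the sources used here, so counts of overlapping and antisense genes are uncertain. The deposited values are raw counts per gene, not pooled. The table has 57820 genes, and 96.05% matched a symbol in GENCODE v44 placed on GRCh37, the source of symbols, positions and exon lengths. CD24, ADORA3, GDF2 and PECAM1 were not matched and are not analysed here.

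From the counts, filterByExpr of edgeR 4.0.16 (R 4.3.3) kept 15647 genes, which were normalized with TMM and fitted with group as the only term for edgeR's quasi-likelihood F test (robust). CPM used TMM-scaled library sizes, and TPM used the union of exons. Standard errors came from the F statistic. Exact two-sided permutation tests on CPM cannot go below 0.1 with 3 against 3; CD44, ALCAM, MCAM and EPCAM reached this value. P-values measure the spread between libraries, which may be technical. Floors cover counting error only.

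The chi-square per gene within groups was 2.94 to 10.1, so replicates were distinct libraries. Alternatives were DESeq2 1.42.0, RLE, library size alone, no filter, a mean of at least 50 counts, thinning, the replicate block, leaving out each library, other fold thresholds, and the longest transcript in place of the union of exons. Members and lists were chosen with earlier results of these data known. The named genes are the members, FOXC1, at most 5 called genes of each partner or surface marker list by smallest p, listed cell type markers, called neighbours of called members, and the 3 genes most like each of 3 members. Genes named beyond this rule were chosen after their values were seen. Counts over lists include a few genes that are not reported here by name. The motif search was added after the sequences had been seen.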

Additional observations from a re-analysis of the deposited data

How the results depend on the processing

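Of 90 values of single members under the alternatives, 82 kept their direction and their side of the thresholds. Leaving out a library gave log2 fold changes of 0.303 to 0.390 for CD44, 0.343 to 0.481 for ALCAM, -0.114 to 0.098 for ENG and -0.017 to 0.064 for CD47. The signs of ENG and CD47, neither of them called, changed when control replicate 1 or KO replicate 3 was left out. The number of members called higher was 1 to 3 when a library was left out, and partner genes called lower numbered 1 to 3. Requiring a fold over 1.3 within the test (glmTreat of edgeR) gave 0 members lower and 1 higher (MCAM), with 1 partner lower and 4 higher. A fold over 2 gave 0 members in either direction, 0 partners lower and 2 higher, and 2 other surface markers lower and 2 higher. A mean of at least 50 counts left 0 members called lower, since EPCAM was then not tested. With DESeq2 the log2 fold changes were 0.359 (CD44), 0.419 (ALCAM), 0.768 (MCAM) and -0.861 (EPCAM). The longest transcript in place of the union of exons shifted TPM levels, for CD44 in control from 737 to 969 TPM. The order of the member means stayed the same.

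The labels do not say whether same-numbered libraries were pairs. Correlations of same-numbered deviations were -0.0402, -0.129 and 0.0734, which show little shared deviation but cannot tell whether the libraries were prepared together. With the replicate number as a block the members stayed at 1 called lower and 2 higher, and log2 fold changes were 0.356 (CD44), 0.413 (ALCAM), 0.771 (MCAM), -0.851 (EPCAM), 0.058 (NT5E), -0.016 (ENG) and 0.022 (CD47), and over all genes 1351 were called lower and 1200 higher. Over all genes DESeq2 called 996 lower and 1046 higher and glmTreat 494 and 516, against 1313 and 1184. At 20 to 53 counts per library, depth limits EPCAM, and it leaves PROM1 and THY1 unresolved.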

Other observations

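The mesenchymal marker list, read beside the surface markers, did not move in 1 direction. All 7 genes were tested, 2 rose and 1 fell, where 7.57% of all tested genes were called higher and 8.39% lower. COL1A1, a fibrillar collagen chain, had a log2 fold change of 2.21 and COL1A2, its partner chain in type I collagen, one of -1.34, while SPARC, a matrix protein, rose by 0.53 on the log2 scale. VIM, vimentin, had 0.30 and was not called. The summed level of the list was 1820 to 2010 CPM in control and 1820 to 2110 CPM in KO. The leukocyte list, a check on cells that should be absent from a cell line, summed to 3.85 to 4.72 CPM in control and 6.18 to 6.97 CPM in KO, with CD3E at 0 in every library.

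KIT, a receptor tyrosine kinase of progenitor cells, listed among the other surface markers, had 6 to 21 counts in a library and groups that overlapped. Its log2 fold change was -1.02 with an edgeR adjusted p of 0.0423, and DESeq2 did not call it (adjusted p = 0.235). The edgeR call was also lost without control replicate 2 (adjusted p = 0.113), control replicate 3 (0.149), KO replicate 2 (0.191) and KO replicate 3 (0.163).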
